A study of Mus musculus with 6 samples.

Results

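The enzymes of glycolysis and the glucose transporter that feeds it are described here by the H3K27ac peaks at and around their genes in control mouse embryonic stem cells (mESCs). The 10 genes are the transporter gene Slc2a1 and the enzyme genes Hk1, Hk2, Gpi1, Pfkl, Pfkp, Aldoa, Eno1, Pkm and Ldha, out of 27706 protein-coding and lincRNA genes of the GENCODE M21 annotation. They were chosen by name, and each was matched to peaks within 1 kb of the transcription start site (TSS) of any of its isoforms, elsewhere in the gene, and within 50 kb of the gene. H3K27ac is acetylation of lysine 27 of histone H3, a mark found at active promoters and enhancers.

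The study treated mESCs of the E14 line (E14Tg2A with Rosa26-Cre and Oct4-IRES-Puro in all groups), grown in 2i/LIF medium, with DMSO as control, with 100 nM NVP-2, which inhibits the elongation kinase CDK9, or with ActD, a DNA intercalator that blocks RNA polymerases. ActD is given as 800 nM in the treatment label and as 1 µg/ml in the protocol. All cells were treated for 2 h, each of the 3 conditions had 2 replicates, and chromatin of the human HEK293T line was added to every sample for scaling. The single list of 22973 peaks analysed here is of control cells with both replicates pooled, and it gives positions in mm10 with no height or score. Its depth cannot be read from it, no spread between replicates can be given, every value below describes that list without a test, and the treated samples were not analysed here.

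In glycolysis, a cell takes up glucose through transporters of the SLC2 family, traps it by phosphorylation with hexokinase, splits the sugar into triose phosphates and oxidises these to pyruvate, gaining ATP and NADH. Lactate dehydrogenase then turns pyruvate into lactate and regenerates NAD+. Most steps are encoded by several isoform genes, some of them used broadly and others mainly in liver, muscle, brain or testis. Embryonic stem cells are known for a high glycolytic rate, and many glycolytic genes are classical targets of hypoxia-inducible factors and of Myc.

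RefSeq promoters, 250 bases before to 50 after a start, were at hand for all 10 genes, 17 promoters in all on GRCm38, the same build as mm10. The 7 below are shown because they carry the contrasts described later. The first 3 lay inside peaks at Ldha, Slc2a1 and Hk2, the next pair are a marked and an unmarked promoter of Hk1, and the last pair are unmarked promoters of Aldoa. They are written 5′ to 3′ on the strand of the gene. Capitals mark the letters ACGTG on either strand, the core of the hypoxia response element, and a CACGTG stands in capitals whole because it holds these letters on both strands. The positions are chr7:46845554-46845853 (plus strand) for Ldha, chr4:119108495-119108794 (plus) for Slc2a1, chr6:82774405-82774704 (minus) for Hk2, chr10:62340372-62340671 (minus) and chr10:62379859-62380158 (minus) for the inner and outer promoters of Hk1, and chr7:126799205-126799504 (minus) and chr7:126800398-126800697 (minus) for those of Aldoa.
Ldha promoter: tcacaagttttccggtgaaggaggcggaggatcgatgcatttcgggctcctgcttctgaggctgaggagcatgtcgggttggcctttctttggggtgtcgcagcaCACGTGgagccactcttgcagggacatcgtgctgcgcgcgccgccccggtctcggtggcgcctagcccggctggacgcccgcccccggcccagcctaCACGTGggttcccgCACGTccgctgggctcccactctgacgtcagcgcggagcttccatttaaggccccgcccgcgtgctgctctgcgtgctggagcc
Slc2a1 promoter: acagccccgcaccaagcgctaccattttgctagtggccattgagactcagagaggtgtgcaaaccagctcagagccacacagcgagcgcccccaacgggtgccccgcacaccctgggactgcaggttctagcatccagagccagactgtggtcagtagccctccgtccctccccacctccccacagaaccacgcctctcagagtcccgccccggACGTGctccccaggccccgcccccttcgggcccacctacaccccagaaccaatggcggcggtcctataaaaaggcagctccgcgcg
Hk2 promoter: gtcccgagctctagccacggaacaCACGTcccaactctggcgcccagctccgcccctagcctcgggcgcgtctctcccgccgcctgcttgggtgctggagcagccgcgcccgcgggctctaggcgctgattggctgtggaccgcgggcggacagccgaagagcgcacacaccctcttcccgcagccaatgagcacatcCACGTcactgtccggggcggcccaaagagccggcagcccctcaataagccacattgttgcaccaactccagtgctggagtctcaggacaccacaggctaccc
Hk1 inner promoter: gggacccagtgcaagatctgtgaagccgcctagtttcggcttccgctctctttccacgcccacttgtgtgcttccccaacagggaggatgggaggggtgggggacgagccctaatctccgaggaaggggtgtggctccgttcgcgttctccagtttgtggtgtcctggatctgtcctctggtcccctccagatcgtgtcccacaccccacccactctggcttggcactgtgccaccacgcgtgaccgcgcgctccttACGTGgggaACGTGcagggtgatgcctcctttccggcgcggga
Hk1 outer promoter: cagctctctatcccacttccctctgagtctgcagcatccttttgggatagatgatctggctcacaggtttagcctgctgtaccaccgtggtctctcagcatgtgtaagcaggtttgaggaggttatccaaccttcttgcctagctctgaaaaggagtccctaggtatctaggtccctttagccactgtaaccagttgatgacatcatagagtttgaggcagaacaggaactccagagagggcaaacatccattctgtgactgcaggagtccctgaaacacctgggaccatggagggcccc
Aldoa inner promoter: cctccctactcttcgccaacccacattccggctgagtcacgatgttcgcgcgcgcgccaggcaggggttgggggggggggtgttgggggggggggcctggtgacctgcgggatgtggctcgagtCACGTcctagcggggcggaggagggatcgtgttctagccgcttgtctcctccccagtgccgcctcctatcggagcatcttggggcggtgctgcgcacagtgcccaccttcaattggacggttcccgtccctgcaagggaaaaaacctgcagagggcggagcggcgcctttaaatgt
Aldoa outer promoter: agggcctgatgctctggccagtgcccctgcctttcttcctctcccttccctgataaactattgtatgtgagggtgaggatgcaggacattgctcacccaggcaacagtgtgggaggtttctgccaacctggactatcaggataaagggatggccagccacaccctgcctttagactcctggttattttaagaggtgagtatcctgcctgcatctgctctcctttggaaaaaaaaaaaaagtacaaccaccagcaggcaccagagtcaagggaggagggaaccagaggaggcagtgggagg

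At least 1 promoter carried a peak in 9 of the 10 genes, Aldoa being the exception, against 44.2% of all 27706 genes. The 10 genes have many annotated starts, a median of 10.5 distinct TSSs against 2 over all genes, and each TSS is a further chance to overlap a peak. Among the 9582 protein-coding genes with 4 to 13 TSSs, the range of the 10 genes, the share with a marked promoter was 72.9%, a background nearer to 9 of 10 than that of all genes. Taking only the TSS of the longest isoform, 8 of the 10 genes were marked, all but Hk1 and Aldoa, against 41.6% of all genes and 67.5% of the coding genes with as many TSSs.

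The promoter peaks of these genes were mostly wider than the typical promoter peak. A peak of at least 10 kb lay at a promoter of 6 of the 10 genes, Slc2a1, Hk1, Hk2, Pfkp, Eno1 and Pkm, against 5.43% of all genes and 8.22% of the coding genes with as many TSSs. Hk1 and Pfkp count here only through 1 inner TSS each, 61.5 and 12.1 kb from the first TSS of the gene. Pkm, at 10.6 kb, lay just above that width, and Gpi1, at 7.10 kb, was the next below it. The 13 promoter peaks of the 10 genes had a median width of 7.10 kb, from 2.26 kb at Pfkl to 53.2 kb at Hk2, while the median of the 11474 promoter peaks of all genes was 2.14 kb. Even the narrowest of the 13 was wider than that median. A width can span several separate stretches of acetylation, since the authors merged peaks within 2 kb of each other.

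**Figure D1:**
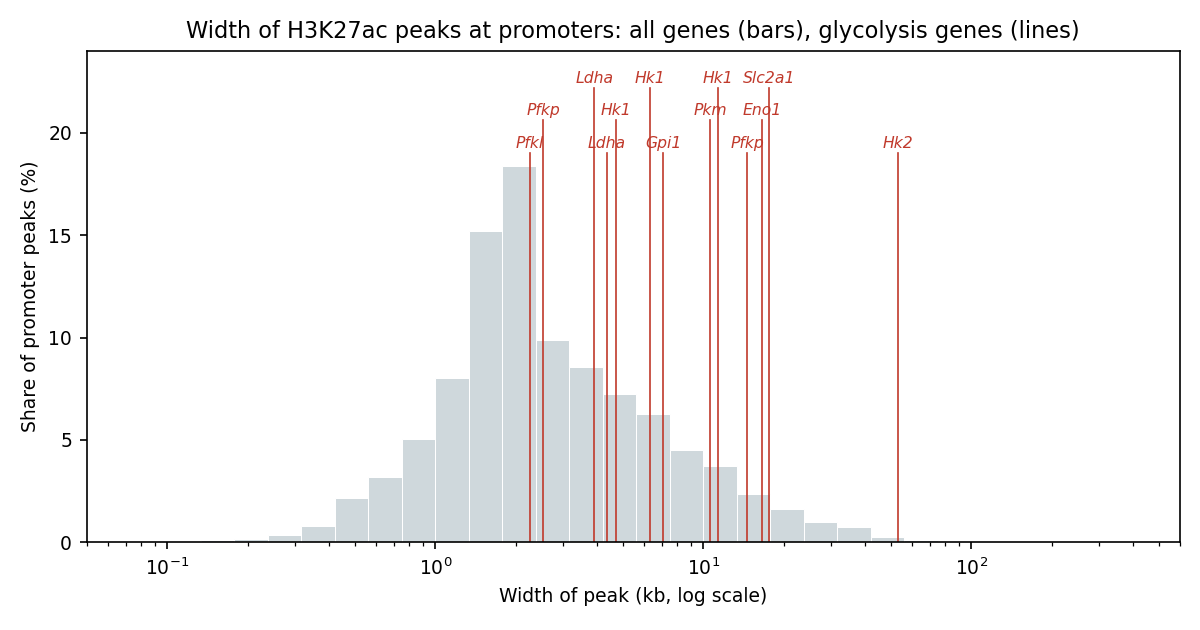
The horizontal axis gives the width of a peak in kb on a log scale and the vertical axis the share of the 11474 promoter peaks of all genes in each bin (bars). Each red line is one of the 13 promoter peaks of the glycolysis genes, which lie between 2.26 kb (Pfkl) and 53.2 kb (Hk2), the line heights being staggered only to separate the names.

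Within 50 kb on each side of the TSS of the longest isoform, peaks covered a median of 14.7 kb around the 10 genes and 2.86 kb around all genes. Around the 13 other isoform genes of the same steps, described below, the median was 10.0 kb, also above that of all genes. Their values ran from 0 kb at Hk3 to 44.2 kb at Slc2a3. All 10 genes lay above the median of all genes, from 5.45 kb at Pfkl to 53.3 kb at Hk2, and Slc2a1, Hk2 and Eno1 lay above the 90th percentile of 22.1 kb. Within 20 kb this did not hold for Hk1, whose outermost TSS had 0 kb covered, below the median of 1.19 kb over all genes. In and around the 10 genes there were 46 peaks, namely 13 at their promoters, 3 elsewhere in the gene and 30 in the flanks, of which 16 lay at the promoter of a gene of another name and 14 did not. The 14 include a peak at the TSS of a second gene entry named Aldoa, described below. Peaks inside the gene but away from its promoters occurred in 3 of the 10 genes, Slc2a1, Hk1 and Gpi1, against 15.3% of all genes and 23.5% of the coding genes with as many TSSs. The count was 2 when the midpoint of the peak had to lie in the gene, since 30.0% of the peak at the 3′ end of Slc2a1 lay inside it. The median length of the 10 genes was 26.1 kb against 14.4 kb over all genes, and the part of gene length in this count was not tested.

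**Figure D2:**
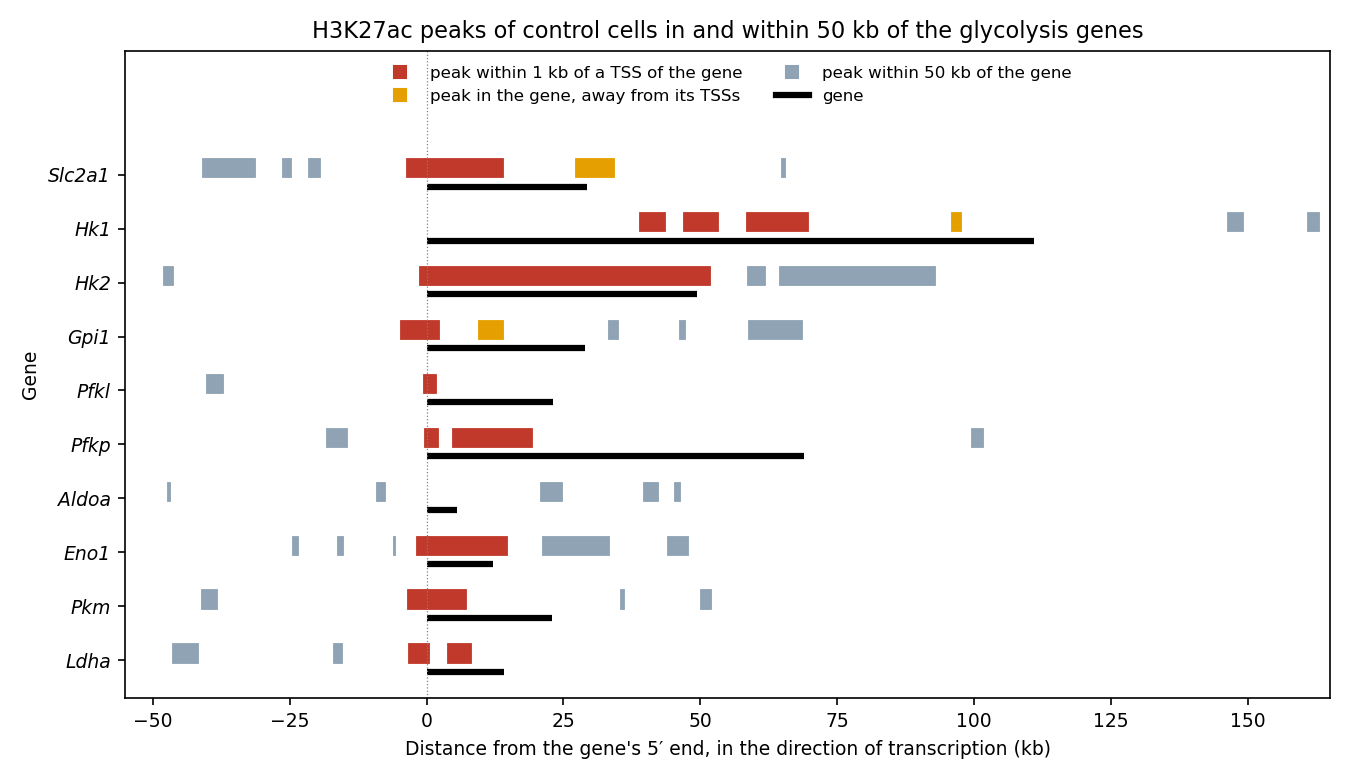
Each row is a gene (black bar) drawn 5′ to 3′, with the distance from its 5′ end in kb on the horizontal axis and boxes for H3K27ac peaks at its TSSs (red), elsewhere in it (orange) and within 50 kb of it (grey). The red box spans the whole of Hk2 and of Eno1, the red boxes of Hk1 begin 38.7 kb inside the gene, and Aldoa has none.

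Slc2a1 encodes GLUT1, the glucose transporter of most cell types. The gene (ENSMUSG00000028645.11, chr4:119108711-119137983, plus strand) has 5 TSSs, and a peak of 17.6 kb at chr4:119105027-119122610 covered all of them. It reached 3.68 kb upstream of the first TSS and over exons 1 and 2 of 10, wider than 96.0% of promoter peaks. A peak of 7.11 kb at chr4:119135849-119142958 covered exons 9 and 10 at the 3′ end and ran past the gene. Peaks covered 54.8% of the gene, and 38.4 kb within 50 kb of its TSS. Of the 4 flanking peaks, those at Gm12866 (9.77 kb) and Zfp691 (0.777 kb) lay at other promoters. A pair of 1.74 and 2.24 kb upstream lay at no annotated protein-coding or lincRNA gene.

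Hexokinases phosphorylate glucose, and their genes Hk1 and Hk2 differed in where the mark lay. Hk2 (ENSMUSG00000000628.10, chr6:82725025-82774454, minus strand) lay entirely within 1 peak of 53.2 kb, chr6:82722626-82775859, with all 18 exons and all 4 TSSs. The peak was wider than 99.8% of promoter peaks and extended only 1.41 kb upstream of the first TSS. A further peak of 28.6 kb at the promoter of Pole4, a DNA polymerase epsilon subunit gene, lay 14.9 kb downstream of Hk2, with 1 of 3.29 kb between them.

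Hk1 (ENSMUSG00000037012.18, chr10:62268855-62379908, minus strand) was marked at 3 of its 12 TSSs, all of coding transcripts and all inside the gene. The peaks were 4.74 kb at chr10:62336424-62341159, 6.34 kb at chr10:62326675-62333011 and 11.4 kb at chr10:62310259-62321626, each with a single TSS, 39.4, 52.1 and 61.5 kb from the first TSS. On the isoform with the longest span, of 22 exons, the first and second of these lay in intron 4 and the widest covered exon 5. The 8 TSSs farther upstream had no peak within 1 kb, and the outermost was 38.7 kb from the nearest peak. A narrow peak of 1.84 kb lay in intron 16. The unmarked outer promoter printed above held 1 CpG in 300 bases, with an observed over expected CpG ratio of 0.0507, above only 6.07% of RefSeq promoters, whereas the marked inner promoter held 20 with a ratio of 0.665. Hkdc1, the neighbouring hexokinase domain gene, had no peak at any of its 4 TSSs.

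Gpi1 encodes glucose-6-phosphate isomerase, which converts glucose 6-phosphate to fructose 6-phosphate. The gene (ENSMUSG00000036427.5, chr7:34201330-34230336, minus strand) had a promoter peak of 7.10 kb, chr7:34228101-34235203, over 7 of its 11 TSSs and exons 1 to 3 of 18. The same peak covered the promoter of the noncoding gene Gm12762 upstream, so it cannot be assigned to Gpi1 alone. A second peak of 4.65 kb, chr7:34216336-34220984, covered exons 5 to 8. The 4 unmarked TSSs were all of noncoding transcripts.

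Phosphofructokinase commits the sugar to glycolysis, and its liver-type and platelet-type genes contrasted in width. Pfkl (ENSMUSG00000020277.10, chr10:77986947-78010083, minus strand) had a peak of 2.26 kb, chr10:78008414-78010670, near the median of all promoter peaks and over exon 1 only. Peaks covered 5.45 kb within 50 kb of its TSS and 2.26 kb within 20 kb, and 1 further peak lay within 50 kb of the gene, at the promoter of Dnmt3l. Pfkp (ENSMUSG00000021196.14, chr13:6579768-6648777, minus strand) had a peak of 2.53 kb at its main TSSs, chr13:6646721-6649248, and a wider one of 14.6 kb, chr13:6629471-6644042, over exon 2 and an inner TSS of a coding transcript 12.1 kb downstream. The wide peak counts as a promoter peak only through that inner TSS. The other 7 TSSs of Pfkp, 6 of them of noncoding transcripts, had no peak.

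Aldolase splits fructose 1,6-bisphosphate into triose phosphates, and Aldoa, its broadly used gene, had no listed peak at any of its 12 TSSs or in its 5.52 kb. The gene (ENSMUSG00000030695.16, chr7:126795234-126800751, minus strand) was 7.56 kb from the nearest peak, one of 1.64 kb at chr7:126808306-126809949, inside Fam57b, a gene on the opposite strand whose annotated span overlaps Aldoa. GENCODE M21 holds a second gene entry named Aldoa (ENSMUSG00000114515.2, chr7:126800790-126809108, minus strand), whose single TSS lies in that peak. This entry shares 205 bases with the RefSeq gene Aldoa, against 5518 for the entry used, and counting both entries would make 10 of 10 genes marked. The inner Aldoa promoter printed above held 24 CpGs with a ratio of 0.751, above 75.1% of RefSeq promoters, and the outer one held 0. Absence from the list is not absence of acetylation, since the authors removed peaks below height limits and peaks away from open chromatin. Peaks at the promoters of Mapk3, Ypel3 and Doc2a lay within 50 kb.

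Eno1 encodes the broadly used enolase, which forms phosphoenolpyruvate. The gene (ENSMUSG00000063524.13, chr4:150236721-150248879, plus strand) lay, like Hk2, wholly inside its promoter peak, 16.6 kb at chr4:150234851-150251418, with all 12 exons and all 10 TSSs. It is short, 12.2 kb. A peak of 12.1 kb, chr4:150257865-150269994, followed 8.99 kb downstream at no annotated protein-coding or lincRNA gene. It was the widest flanking peak of the 10 genes that lay at no promoter. Within 50 kb of the TSS of Eno1, peaks covered 35.1 kb.

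Pkm encodes the pyruvate kinase of most tissues, which makes pyruvate and ATP. The gene (ENSMUSG00000032294.17, chr9:59656368-59679375, plus strand) had a peak of 10.6 kb, chr9:59652877-59663514, over 9 of its 11 TSSs. It covered exon 1 and part of intron 1, with no coding base. The alternatively spliced exons that set the M1 and M2 forms cannot be read from acetylation peaks.

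Ldha encodes the lactate dehydrogenase subunit that favours lactate formation. The gene (ENSMUSG00000063229.15, chr7:46841475-46855627, plus strand) was marked at all 13 TSSs by 2 peaks. The one of 4.37 kb, chr7:46845174-46849546, covered 12 TSSs, and the one of 3.92 kb, chr7:46838089-46842005, covered the single TSS 4.36 kb upstream of these. Ldhc, the testis-type gene, had no peak at any of its 4 TSSs, and its nearest peak was that of Ldha, 11.7 kb from its start.

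More than 1 promoter peak was found at 3 of the 10 genes, Hk1, Pfkp and Ldha, against 4.2% of all genes and 9.42% of coding genes with as many TSSs. Over single starts, 58 of the 96 TSSs of the 10 genes were marked (60.4%), against 43.9% of the 101500 TSSs of all genes. For coding transcripts the shares were 71.7% (43 of 60) and 49.7%, and for noncoding transcripts 41.7% (15 of 36) and 37.3%. TSSs of 1 gene share its peaks and are not independent. Of the 17 unmarked coding TSSs, 8 were of Aldoa and 7 of Hk1, with 1 each at Pfkp and Pkm.

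**Figure D3:**
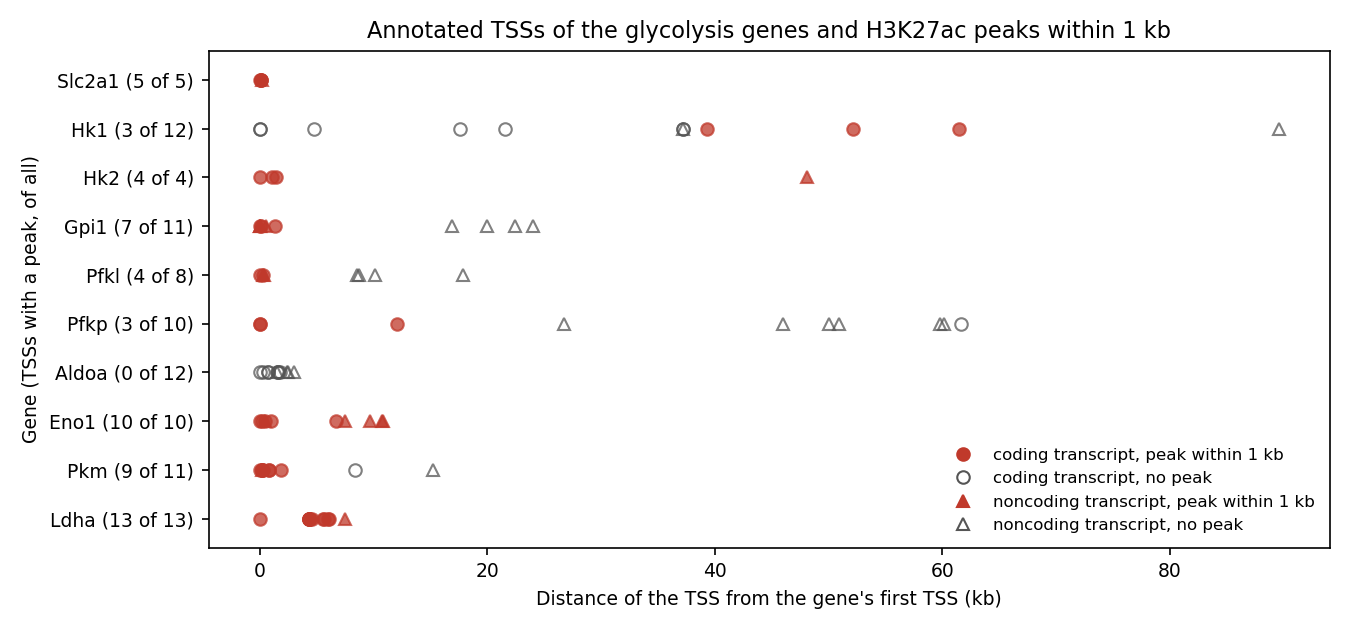
Each point is an annotated TSS, placed by its distance in kb from the first TSS of the gene, filled red where a peak lies within 1 kb and open where none does, with circles for coding and triangles for noncoding transcripts. All TSSs of Slc2a1, Hk2, Eno1 and Ldha are filled, none of the 12 of Aldoa is, and in Hk1 the 3 filled points lie 39.4 to 61.5 kb downstream of the first TSS.

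The promoter sequences were compared with all 32851 RefSeq promoters of the same length. Peaks overlapped 13 of the 17 promoters of the 10 genes, against 36.9% of all. The 13 had a median of 64.7% G and C and a CpG ratio from 0.540 to 1.03 (median 0.695), and all marked promoters a median of 61.3% and 0.780. Unmarked promoters of all genes had medians of 48.7% and 0.237. The 4 unmarked promoters of the 10 genes fell apart, with 1 of Hk1 and 1 of Aldoa near 0 and 2 overlapping ones of Aldoa at 0.714 and 0.751, within the range of the marked promoters.

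**Figure D4:**
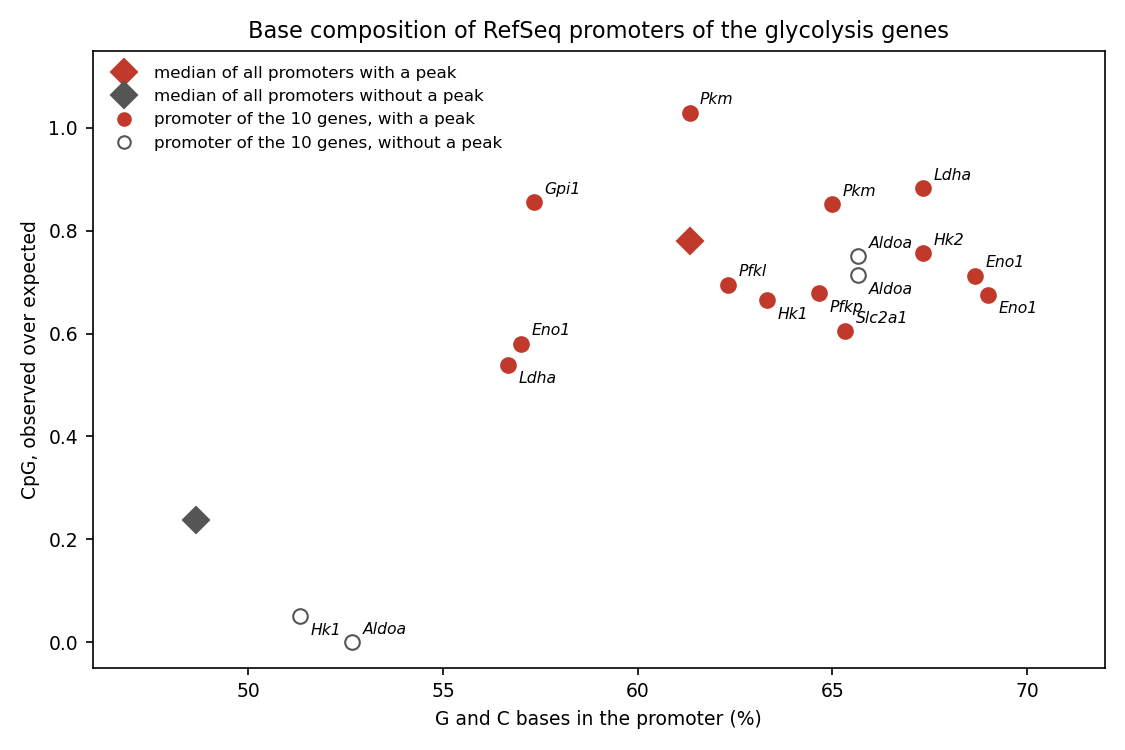
The share of G and C bases (horizontal, percent) and the observed over expected CpG ratio (vertical) of the 17 RefSeq promoters of the glycolysis genes, filled where a peak overlaps, with diamonds for the medians of all marked and all unmarked promoters. A pair of open Aldoa points at 0.714 and 0.751 lies among the filled points, while the open Hk1 point and the third Aldoa point lie near 0.

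Short motifs were searched on both strands as exact letters. ACGTG occurred in 7 of the 17 promoters against 19.6% of all promoters and 26.5% of those overlapped by a peak. The 7 come from 6 genes, since 2 are the overlapping Aldoa promoters, which share most of their bases, and the 17 also hold overlapping promoters of Eno1. Ldha held 5 matches, 4 of them from 2 copies of the E-box CACGTG, which occurred in 1 of the 17 promoters, 7.15% of all promoters and 10.6% of those overlapped by a peak. Hk1 inner, Hk2 and 1 of the Pkm promoters held 2 each, Slc2a1 1, and the unmarked CpG-rich Aldoa promoter also held 1, so the letters were present with and without a peak. The other form, GCGTG, occurred in 9 of 17 against 32.4% of all, the GC box GGGCGG in 11 against 35.7%, and the CCAAT box in 9 against 37.4% of all and 37.2% of those overlapped by a peak. The TATA box TATAAA occurred in 1, that of Slc2a1, against 13.6% of all promoters and 6.12% of those overlapped by a peak. GC-rich motifs are frequent in GC-rich promoters, among marked ones 52.0% for GCGTG and 64.5% for GGGCGG, and a match is only a match of letters.

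The isoform genes of the same steps examined beside them were marked at about the share of protein-coding genes, and below that of coding genes with 4 to 13 TSSs. Of 13, 7 were marked (53.8%), against 44.2% of all genes, 51.8% of protein-coding genes and 72.9% of coding genes with 4 to 13 TSSs. The 13 had from 3 to 15 TSSs, with a median of 5 against 10.5 for the 10 genes. These differences were not tested. The marked ones were Slc2a3, Pfkm, Aldoc, Eno2, Eno3, Eno4 and Ldhb, several of them known mainly from muscle (Pfkm, Eno3) or brain (Aldoc, Eno2). The 6 unmarked genes were Slc2a2, Slc2a4, Hk3, Hkdc1, Pklr and Ldhc, which include genes known mainly from liver (Slc2a2, Pklr), muscle and fat (Slc2a4) and testis (Ldhc), so tissue-restricted forms stood on both sides. The 10 promoter peaks of the marked genes had a median width of 2.14 kb, equal to that of all genes to 3 digits, against 7.10 kb for the 10 genes. Of the 13, 1 had a peak of at least 10 kb (7.69%, against 5.43% of all genes), Slc2a3, the GLUT3 transporter gene. Its widest was 18.1 kb, next to 17.6 kb at Slc2a1, and it lies in the neighbourhood of Nanog on chromosome 6. Ldhb had 8.78 kb, wider than either peak of Ldha. Aldoc had the narrowest, 0.317 kb.

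**Figure D5:**
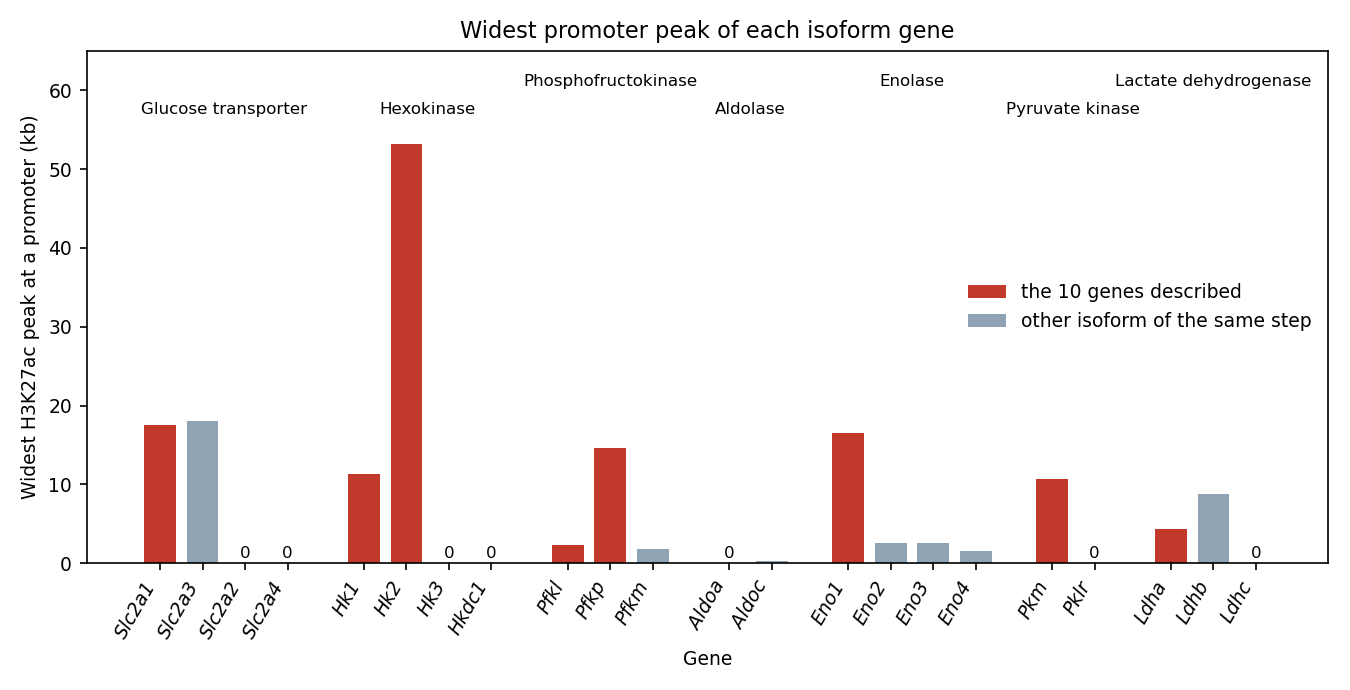
Bars give the width in kb of the widest H3K27ac peak at a promoter of each isoform gene examined, grouped by step, in red for the genes described and in grey for the other isoforms, with 0 where no promoter carried a peak. Hk2 stands highest at 53.2 kb, and Slc2a3 (18.1 kb), Ldhb (8.78 kb) and Aldoc (0.317 kb) are the grey bars wider than a red bar of their own step.

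The further lists of related genes are read against the same backgrounds, a marked promoter in 44.2% of all genes and 51.8% of protein-coding genes, and a peak of at least 10 kb in 5.43% of all genes. A list of the remaining steps with the side enzymes Adpgk, an ADP-dependent glucokinase, and Bpgm was marked at 5 of 6 genes, with Tpi1 (11.8 kb), Gapdh (11.0 kb) and Pgk1 (21.7 kb) over 10 kb, Pgam1 (4.97 kb) and Adpgk (2.92 kb) below it, and Bpgm, of the 2,3-bisphosphoglycerate shunt of red cells, unmarked. The testis and muscle forms Gapdhs, Pgk2 and Pgam2 were unmarked, 0 of 3. Among 17 genes of lactate and pyruvate transport, pyruvate dehydrogenase and its kinases and the regulators of fructose 2,6-bisphosphate, 16 were marked, Pdk2 being the exception, and Pdha1 (10.1 kb) and Pdk1 (10.2 kb) exceeded 10 kb. All 7 genes of the pentose phosphate pathway, which branches from glucose 6-phosphate, were marked, with Pgd (15.8 kb) and Tkt (12.9 kb) the widest. For coding genes with 4 to 13 TSSs the shares were 72.9% marked and 8.22% with a peak of at least 10 kb, and lists this small were not tested against them. Of 6 genes of gluconeogenesis, the reverse route, Pck2 (5.75 kb) and Pcx (1.87 kb) were marked and G6pc, Fbp1, Fbp2 and Pck1 were not.

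The labelled cell type was checked against marker genes. All 8 embryonic stem cell marker genes had a promoter peak of at least 10 kb, against 5.43% of all genes. They include Pou5f1, Sox2 and Nanog, and their widest peaks had a median of 28.9 kb, above every glycolysis gene but Hk2. None of 10 marker genes of liver, muscle, neurons, blood, fibroblasts, trophoblast or endoderm had a peak at a promoter. Over all genes the share with such a peak was 44.2%.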

How the data were processed

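H3K27ac ChIP-seq was performed by the authors in control, NVP-2 and ActD cells. Per the methods, the authors trimmed reads with Cutadapt, aligned them with BWA to mm10 together with a human genome, discarded duplicates (Picard 2.9.1) and alignments of low mapping quality (SAMtools 1.4), applied the LanceOtron peak caller, merged neighbouring peaks, and removed peaks below limits on input-subtracted height or away from ATAC-seq summits. The values used here are positions in base pairs of pooled control peaks, without counts. What a limit removed cannot be read from the list.

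Peaks were matched to 110068 transcripts of 27706 genes in GENCODE M21 (GRCm38), an earlier release than the study's. A promoter was ±1 kb around any TSS, and 1 bp of overlap counted. Gene body peaks lay away from these windows, and flanks were 50 kb. Percentiles are over all genes or promoter peaks. The 44.2% of genes marked has a 95% Wilson interval of 43.6 to 44.8, for counting error only. Genes named are the 10, their isoform genes, list members where 5 or fewer were marked or unmarked, and neighbours sharing or nearest to a peak, with further flanking genes, Pou5f1, Sox2, Nanog and the pathway genes over 10 kb named after their values were seen. Some isoform genes are not reported here. Members and lists were chosen with earlier results of these data known. Overlap functions were tested on simulated data. Python 3.11.15, numpy 2.4.6, scipy 1.17.1 and matplotlib 3.10.9 were used.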

Additional observations from a re-analysis of the deposited data

How the results depend on the processing

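The count of marked genes was 9 of 10 with windows of ±0.5 kb and ±2 kb, with the TSS inside a peak, with coding transcripts only, with 0.5 kb of overlap required and with peaks of at least 1 kb. It was 8 with the longest isoform only, and 10 when both entries of Aldoa were counted, which was tried only once the data had been seen. The isoform genes stayed between 5 and 7 of 13. The share of all genes moved more than its counting interval, to 45.3% with ±2 kb, 41.5% with the TSS inside a peak, 41.6% with the longest isoform, 40.2% with coding transcripts only, 42.8% with 0.5 kb of overlap required, 39.7% with peaks of at least 1 kb, 51.8% in coding genes, and 72.9% in coding genes with as many TSSs as the 10, also tried once the data had been seen. The 46 peaks became 29 within 20 kb and 77 within 100 kb. Genes with a peak away from their promoters were 3, or 2 by peak midpoint. The median length covered around the TSSs of the 10 genes was 14.7 kb within 50 kb, 11.2 kb within 20 kb and 25.4 kb within 100 kb, and at 20 kb Hk1 fell to 0 kb. The median promoter peak width was 7103 bp, or 8870.5 bp with the longest isoform only. No paired analysis was possible because the list pools both control replicates. For the same reason neither replicate could be omitted nor any difference between samples tested, and a lack of a peak sets no upper limit on acetylation.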
